A study of Mus musculus with 24 samples.

Results

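The genes described are the splicing factors and heterogeneous nuclear ribonucleoproteins (hnRNPs) of mouse hippocampal slices. Members were chosen by gene symbol alone, as every symbol that begins with Hnrnp, Srsf, Sf3a, Sf3b, Snrp, Prpf, Rbfox, Nova or Celf, plus U2af1, U2af2, Tra2a, Tra2b, Srrm1 and Srrm2. This gave 82 genes of the 23845 in the RNA table and of the 20436 in the ribosome footprint table, and all 82 were present in both. By family there were 20 Hnrnp, 13 Prpf, 12 Snrp, 11 Srsf, 9 Sf3a and Sf3b, 6 Celf, 3 Rbfox and 2 Nova genes and the 6 genes chosen by name.

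Introns are removed from pre-mRNA in the nucleus by the spliceosome, a set of small nuclear RNAs and proteins. Snrp genes encode the ring and accessory proteins of the small nuclear ribonucleoproteins, Sf3a and Sf3b genes encode parts of the U2 particle that binds the branch point, and Prpf genes encode factors that build and drive the complex. SR proteins (Srsf, Tra2) mostly promote the use of exons they bind, hnRNPs often oppose it and also take part in the export, localisation and translation of mRNA, and the Rbfox, Nova and Celf families set alternative splicing programmes in neurons. Many SR protein and hnRNP genes are known to limit their own expression by making transcripts that stay in the nucleus or are degraded. RNA of that kind yields RNA-seq reads and few footprints, so RNA, footprints and footprints per RNA are given side by side.

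Slices came from male wild-type (WT) mice and Tsc2+/- littermates aged 28 to 42 days, and were exposed for 5 min to vehicle or to 100 µM DHPG, an agonist of group 1 metabotropic glutamate receptors. Tsc2 encodes a subunit of the complex that restrains mTOR, and the Tsc2+/- mice were heterozygous in the germline, from a cross of Tsc2 flox mice with mice carrying a ubiquitously active CMV-Cre, bred on C57BL/6J. Each genotype and treatment had 3 lysates of pooled slices with CA3 cut away, and an RNA library and a ribosome protected fragment (RPF) library were made from each, 24 libraries in 8 groups of 3. All slices received cycloheximide, and the RNA was poly(A)-selected from lysates that had been cleared by centrifugation.

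The RNA libraries held 14801679 to 24067838 counts and the RPF libraries 5296006 to 13613673. Values are CPM (counts scaled by library size) after TMM scaling. Tsc2 RNA was 186 to 195 CPM in WT vehicle and 199 to 214 in WT DHPG, and for Tsc2+/- 128 to 137 with vehicle and 129 to 135 with DHPG, so that the genotypes did not overlap. The neuronal markers summed to 11231 to 13212 CPM over the RNA libraries, and the CA1 markers, at 1614 to 1786 CPM, stood far above the CA3 markers at 100.1 to 120 CPM. Some marker sums separated groups. The dentate gyrus markers were at 50.9 to 65.4 CPM in WT DHPG and 35.9 to 44.3 in Tsc2+/- DHPG in RNA, and at 35.0 to 38.8 and 24.3 to 27.1 in RPF. The RPF sum in Tsc2+/- vehicle, 31.8 to 35.5 CPM, was also above that of Tsc2+/- DHPG. In RNA the blood markers were at 20.9 to 26.8 CPM in WT vehicle and 2.59 to 16.5 in Tsc2+/- vehicle. The neuronal sum, which includes the member Rbfox3, was 11231 to 12220 and 12270 to 13212 CPM in these groups, and in RPF it was higher in WT vehicle (8530 to 9303) than in WT DHPG (8315 to 8505) or Tsc2+/- vehicle (8330 to 8492). The part of cell makeup in the members' values was not tested. In bulk slices a lower share of cells of a type and less RNA per cell cannot be told apart.

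Splicing factors and hnRNPs were abundant and were covered by more footprints than their RNA level would give at the median gene. The 82 members took 0.837 to 0.869% of RNA counts and 1.30 to 1.40% of RPF counts, and the RPF share was 1.50 to 1.63 times the RNA share in the 12 lysates. Levels of different genes were compared per kb, with RNA over the transcript and footprints over the coding sequence less the 30 bases removed at each end. In WT vehicle the median member had an RNA level of 26.5 CPM per kb and a footprint level of 94.9 CPM per kb, beside 8.31 and 16.7 for the median of the 12533 genes measured in both assays.

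Footprints per RNA, the log2 ratio of these levels centred on the median gene of each lysate, could be given for the 78 members with a coding sequence over 300 bases. Their median in WT vehicle was 0.77, with 59 members above the median gene and 19 below. Of the 78, 24 lay among the highest 10% of all genes and 1 among the lowest 10%. The other splicing genes of a wider list, 92 that are no members, had a median of 0.39. These are descriptions of levels and carry no test.

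**Figure D1:**
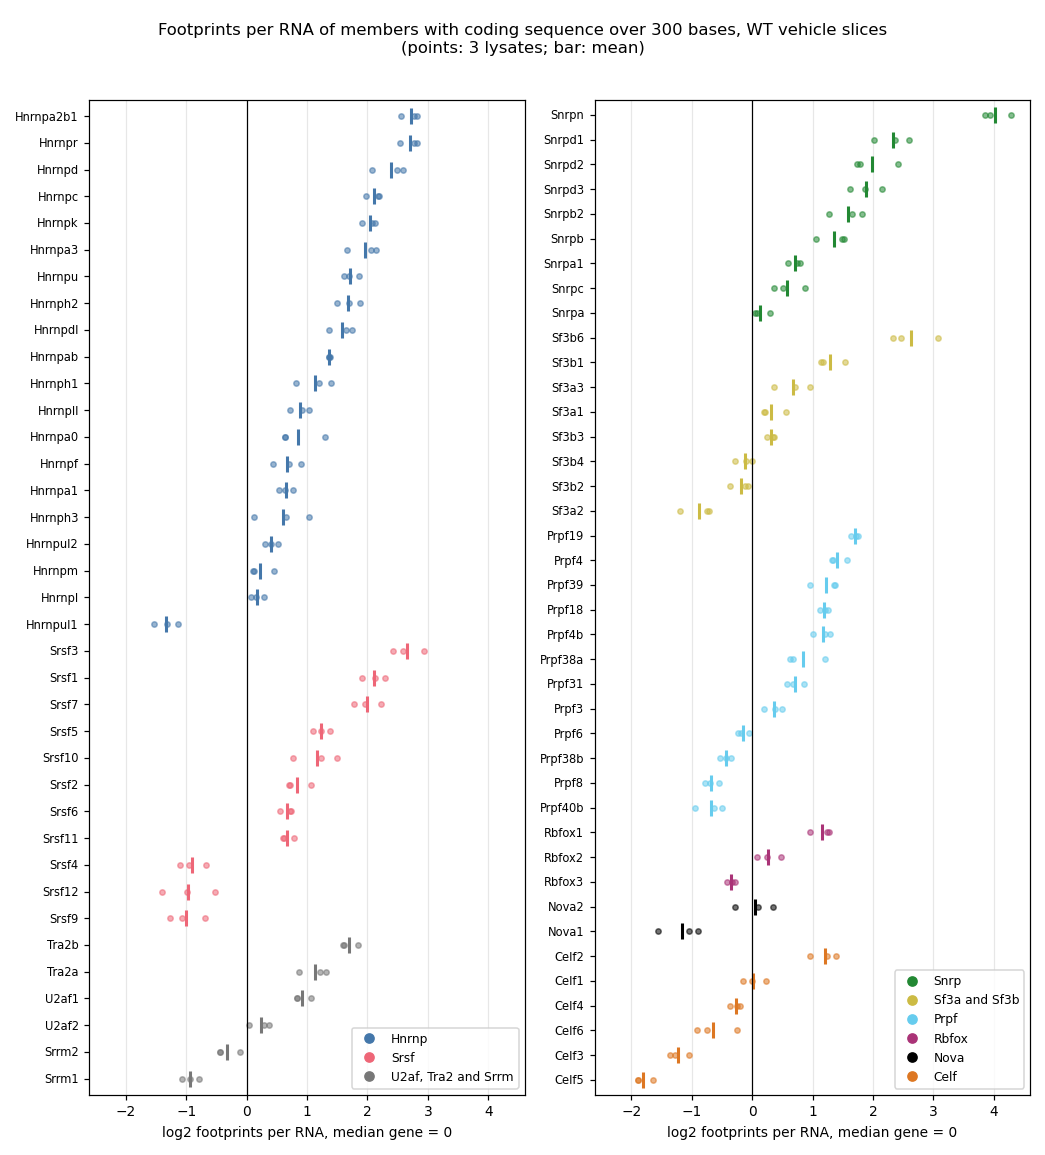
Footprints per RNA in WT vehicle slices (x axis, log2, the median gene of each lysate at 0) of members with a coding sequence over 300 bases, 1 line per gene grouped by family, with 1 Prpf gene not shown; points are the 3 lysates and the bar their mean. All 9 Snrp genes shown and 19 of 20 Hnrnp genes lie to the right of 0, and 4 of 6 Celf genes lie to the left.

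The families differed widely. The median footprints per RNA in WT vehicle were 1.59 for 9 Snrp genes, 1.25 for 20 Hnrnp genes, 0.84 for 13 Prpf genes and 0.83 for 11 Srsf genes. They were 0.57 for the 6 U2af, Tra2 and Srrm genes, 0.32 for 8 Sf3a and Sf3b genes and 0.27 for the 3 Rbfox genes. Celf and Nova, with medians of -0.46 and -0.56, were the families below the median gene.

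Among the hnRNPs, Hnrnpa2b1 had the highest footprint level of all members. It encodes hnRNP A2/B1, known to bind localised mRNAs in neurons and oligodendrocytes. Its RNA level in the 3 WT vehicle lysates was 69.5, 65.4 and 62.8 CPM per kb, its footprint level 899, 1002 and 924 CPM per kb, and its footprints per RNA 2.72 ± 0.14 (SD, n = 3), 6.57 times the median gene. The 3 lysates lay close together, and the other groups had means of 2.71 to 2.82. Hnrnpk, which encodes a poly(C)-binding hnRNP, followed at 810 ± 36.9 footprint CPM per kb on an RNA level of 91.0 ± 2.44. Hnrnpr reached a like ratio from much less RNA, with 7.52 ± 0.40 RNA CPM per kb, 108 ± 5.11 footprint CPM per kb and footprints per RNA of 2.70 ± 0.15. Hnrnpul1 was the exception of the family, at -1.33 ± 0.20, on an RNA level of 31.5 ± 1.62 CPM per kb. Hnrnpa1, Hnrnpa3, Snrpe and Snrpg belong to gene families with processed copies in the mouse genome, so their counts depend on how shared reads were handled and are less certain.

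The SR proteins spread over a wide range. Srsf3, which encodes the smallest SR protein, had footprints per RNA of 2.65 ± 0.26 in WT vehicle. Srsf9, at -1.01 ± 0.30, Srsf12, at -0.97 ± 0.44, and Srsf4, at -0.91 ± 0.22, were the 3 Srsf genes below the median gene, and their order cannot be read because their spreads overlap. Srsf5 had the third highest RNA level of the members with 106 ± 1.71 CPM per kb, and a footprint level of 548 ± 64.0. Tra2b, an SR-like splicing activator, was at 1.69 ± 0.14, and Srrm1, which encodes a large SR-related coactivator, at -0.93 ± 0.14.

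Core spliceosome genes lay mostly above the median gene. Sf3b6, whose product contacts the branch point within SF3B, was highest of its family with 2.62 ± 0.40 and Sf3a2 lowest with -0.88 ± 0.26. The lowest of the Prpf genes was Prpf40b, at -0.69 ± 0.23. Snrpa, the U1 A protein, had the lowest value of the Snrp genes, 0.14 ± 0.13. The 4 members with coding sequences of at most 300 bases were kept apart because trimming leaves little of them. Their values on the same scale were 1.32 ± 0.38 for Sf3b5, 0.97 ± 0.10 for Snrpg, 2.09 ± 0.08 for Snrpf and 2.63 ± 0.32 for Snrpe.

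Snrpn gave the highest footprints per RNA of all members, 4.02 ± 0.23, but the value depends on how reads were divided between overlapping genes. Snrpn (chr7:59982495-60450177, minus strand, GRCm38) encodes a neuronal relative of SmB and is known to share a bicistronic transcript with Snurf. Its RNA level was 21.5 ± 2.51 CPM per kb and its footprint level 758 ± 28.7. Of the RNA counts of Snrpn and Snurf together, 4.36 to 9.40% were assigned to Snrpn over the 12 RNA libraries. With the RNA counts of both genes summed, Snrpn came to 0.05 ± 0.19 in WT vehicle and to -0.08 to 0.01 in the other groups, close to the median gene. The median of the Snrp family was then 1.35.

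**Figure D2:**
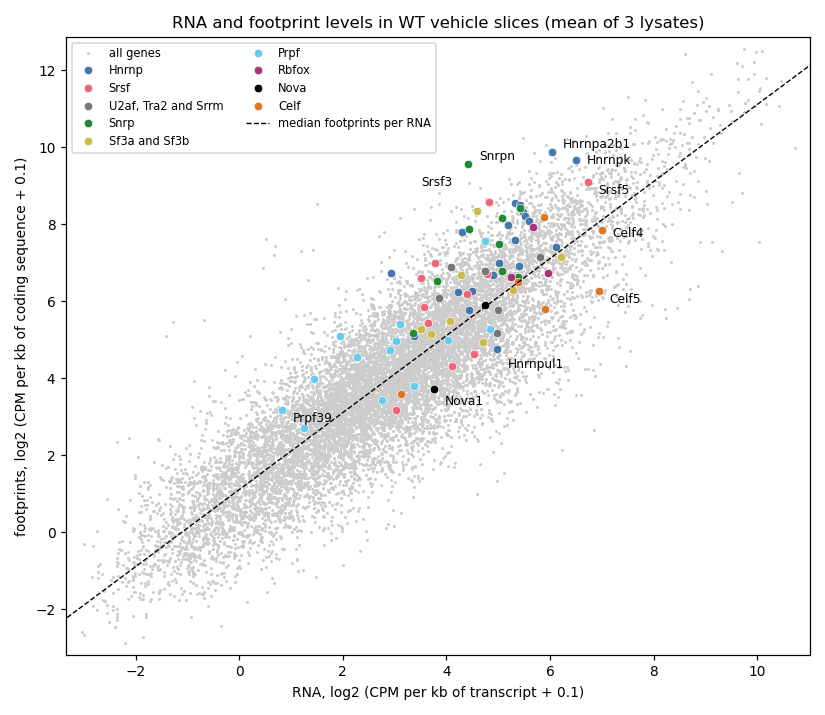
RNA level (x axis) and footprint level (y axis) of the members in colour and of all 12533 genes in grey in WT vehicle slices, both as log2 of CPM per kb plus 0.1, mean of 3 lysates; the dashed line marks the median footprints per RNA. Most members lie above the line, with Snrpn far above it and Celf5 far below.

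The Celf genes had much RNA, and 4 of the 6 had fewer footprints per RNA than the median gene. Celf4 and Celf5, members of a family of RNA-binding proteins expressed in brain, had the highest RNA levels of the members, 129 ± 7.35 and 123 ± 2.32 CPM per kb in WT vehicle, which do not differ beyond their spread. Their footprint levels were 232 ± 8.52 and 77.0 ± 8.29 CPM per kb. Celf5 (chr10:81459227-81482730, minus strand, GRCm38) had the lowest footprints per RNA of the members, with -1.63, -1.89 and -1.88 in the 3 WT vehicle lysates, and was the only member among the lowest 10% of genes there. Its group means in the other groups were -1.96 to -1.88. In WT vehicle the others followed as Celf3 at -1.22 ± 0.16, Celf6 at -0.64 ± 0.34, Celf4 at -0.27 ± 0.09, Celf1 at 0.02 ± 0.19 and Celf2 with 0.96 to 1.39 over the 3 lysates. Celf6 overlapped Celf4 within its spread, and Celf2 stood apart from the other 5.

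Nova1 and Nova2 encode the KH-domain splicing regulators of neurons, and their footprints per RNA were -1.16 ± 0.35 for Nova1 and 0.05 ± 0.31 for Nova2. The RNA level was 13.5 ± 1.11 CPM per kb for Nova1 and 26.9 ± 3.17 for Nova2. Rbfox1, Rbfox2 and Rbfox3, which bind the same short RNA motif, had footprints per RNA of 1.15 ± 0.17, 0.27 ± 0.20 and -0.35 ± 0.07. Rbfox3, the NeuN antigen, had the most RNA of these 3 genes, 62.4 ± 4.34 CPM per kb, and a footprint level of 106 ± 5.09, while Rbfox1 had 50.8 ± 1.92 and 246 ± 17.7.

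Of the Srsf genes 8 of 11, and of the Hnrnp genes 19 of 20, had more footprints per RNA than the median gene. Nuclear noncoding RNA was present in these RNA libraries. The 8 nuclear-retained noncoding RNAs measured, such as Malat1, summed to 1393 to 1550 CPM in WT vehicle and 1239 to 1426 in WT DHPG, and for Tsc2+/- to 1167 to 1313 CPM with vehicle and 1119 to 1354 with DHPG. Malat1 RNA was lower in Tsc2+/- vehicle than in WT vehicle by a log2 change of -0.45 (SE 0.065, edgeR adjusted p = 0.00296). With DHPG the genotypes differed by -0.19 (edgeR adjusted p = 0.838), and DHPG in WT by -0.28 (edgeR adjusted p = 0.541), neither called. Averaged over treatments the genotype change was -0.32 (SE 0.046, edgeR adjusted p = 0.00119), and the interaction, 0.25, was not called (edgeR adjusted p = 0.999). None of the other nuclear-retained RNAs was called for genotype in vehicle, where they ranged from -0.63 for Miat to 0.15 for Kcnq1ot1, with Rian at -0.017. The part of nuclear RNA in the members' values was not tested.

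Footprints per RNA moved with coding length and base composition, across genes and in members as in all genes. Across the 78 members, Pearson's r with the log2 coding length was -0.42, and -0.37 across all 12533 genes. With the log2 transcript length it was weak, -0.10 over the members and -0.15 over all genes. Both lengths enter the ratio: coding length divides it, and transcript length, which divides the RNA, multiplies it. With the GC content of the coding sequence r was -0.48 over the members and -0.43 over all genes. Genes are not independent replicates and the points share libraries, so these are descriptions. With no division by length the members' median was 0.72, while the Rbfox median went from 0.27 to -1.12.

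The order of the members was nearly the same in all 4 groups. The median footprints per RNA of the 78 members was 0.77 in WT vehicle and 0.88 in WT DHPG, and for Tsc2+/- 0.88 with vehicle and 0.94 with DHPG. A member's 4 group means spanned a median of 0.18, beside 0.24 for all genes, and the median SD over 3 lysates was 0.13. The median member had higher levels than the median gene, and spans of genes at like levels were not compared. The widest span of a member was 0.65, for Prpf3, and the narrowest 0.034, for Srsf7.

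**Figure D3:**
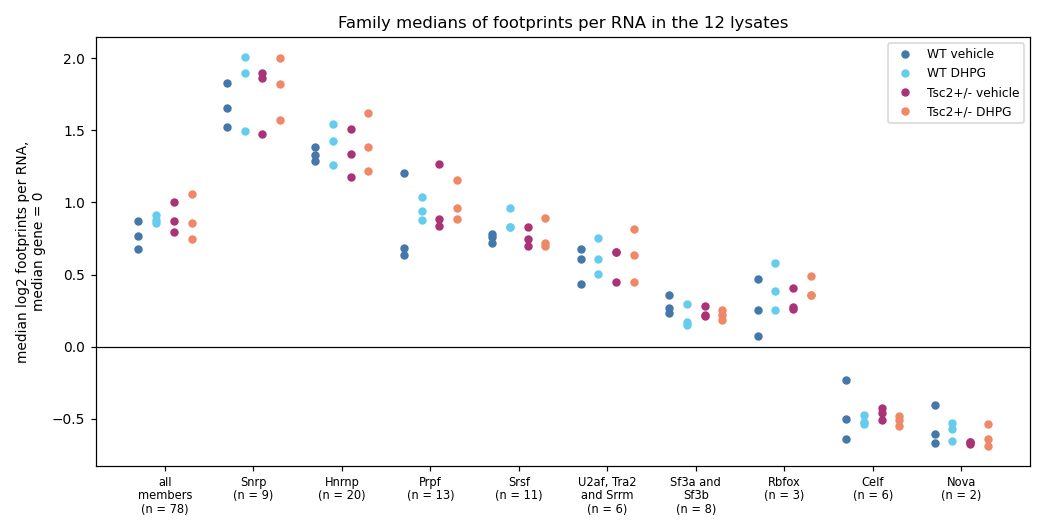
Median footprints per RNA (y axis, log2, median gene at 0) of each family and of all members (x axis), with 1 point per lysate, 3 per group, coloured by group. The all-member medians run from 0.68 to 1.06 over the 12 lysates. The Srsf medians run from 0.72 to 0.78 in WT vehicle and from 0.83 to 0.96 in WT DHPG, and every other family overlaps between these groups. In Tsc2+/- the Srsf medians overlap, at 0.70 to 0.83 with vehicle and 0.70 to 0.90 with DHPG. Taken over gene means instead, the Srsf median is 0.83 in WT vehicle and 0.85 in WT DHPG.

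Tsc2+/- was compared with WT in vehicle to ask whether losing a Tsc2 allele alters these genes at rest. No member passed the test in either direction, in RNA, RPF or footprints per RNA (translational efficiency, TE, tested as an assay by group term), at an adjusted p under 0.1 in edgeR's quasi-likelihood test over all genes. The share of all genes called was 0.0896% in RNA, 0.0233% in RPF and 0% in TE. At an unadjusted p under 0.05 there were 3, 7 and 4 members, or 3.66%, 8.54% and 4.88%, beside 4.9%, 6.55% and 5.73% of all genes. The intervals were narrow: in RNA 78 of 82 members, and in RPF 80, had a 95% interval within 0.5 on the log2 scale in either direction (1.41-fold), and in TE 72. DESeq2 also called 0 members in each of the 3 readouts. The 3 values per group did not overlap for 7 members in RNA (8.54%) and 4 in RPF (4.88%), beside 8.2% and 8.29% of all genes.

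The smallest p in RNA belonged to Hnrnpa0, an AU-rich element binding hnRNP. Its RNA was 91.1, 90.9 and 76.6 CPM in WT vehicle and 79.8, 75.6 and 69.0 CPM in Tsc2+/- vehicle, and the groups overlapped. The log2 change was -0.20 (SE 0.064), with an edgeR adjusted p of 0.772. In RPF it was Snrpd3, a core Sm ring protein, with 94.3, 117 and 119 CPM in WT vehicle and 116, 138 and 127 in Tsc2+/- vehicle, which overlap, and a log2 change of 0.22 (SE 0.073, edgeR adjusted p = 0.591). In TE it was Srrm2, a scaffold of nuclear speckles that lies at chr17:23790527-23824741 (plus strand, GRCm38), on the chromosome that carries Tsc2. Srrm2 RNA was 288, 297 and 258 CPM in WT vehicle and 321, 296 and 308 in Tsc2+/- vehicle, and its footprints were 424, 433 and 473 and then 399, 416 and 395 CPM. Its footprints did not overlap between the groups and its RNA did, and the log2 change in TE was -0.27 (SE 0.081, edgeR adjusted p = 0.733). The part of sequence linked to the Tsc2 allele in the genotype differences of Srrm2 was not tested.

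In slices given DHPG the genotypes were compared again. Again 0 members were called, beside 0.0482% of all genes in RNA, 0.0155% in RPF and 0% in TE, and DESeq2 called 0. At an unadjusted p under 0.05 there were 2, 3 and 2 members, or 2.44%, 3.66% and 2.44%, beside 4.64%, 4.13% and 3.01% of all genes. The groups did not overlap for 9 of 82 members in RNA and 9 in RPF, beside 9.44% and 10% of all genes. The sums of the dentate gyrus markers did not overlap between these groups either, in RNA or RPF. Prpf39, a U1-associated splicing factor, came nearest to the threshold of any member's RNA. Its RNA was 8.93, 9.64 and 9.28 CPM in WT DHPG and 6.74, 6.05 and 5.67 CPM in Tsc2+/- DHPG. The groups did not overlap, the log2 change was -0.60 (SE 0.151) and the edgeR adjusted p was 0.304. Prpf39 has little RNA, 126 to 196 counts in these 6 libraries, and its footprints were 17.8, 16.9 and 18.5 CPM in WT DHPG and 14.9, 13.1 and 13.9 CPM in Tsc2+/- DHPG. In RPF Hnrnpul2, a relative of the nuclear scaffold protein hnRNP U, had the smallest p with a log2 difference of 0.16 (SE 0.058, edgeR adjusted p = 1), and in TE Prpf3, a factor of the U4/U6 particle, with 0.61 (SE 0.218, edgeR adjusted p = 1).

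**Figure D4:**
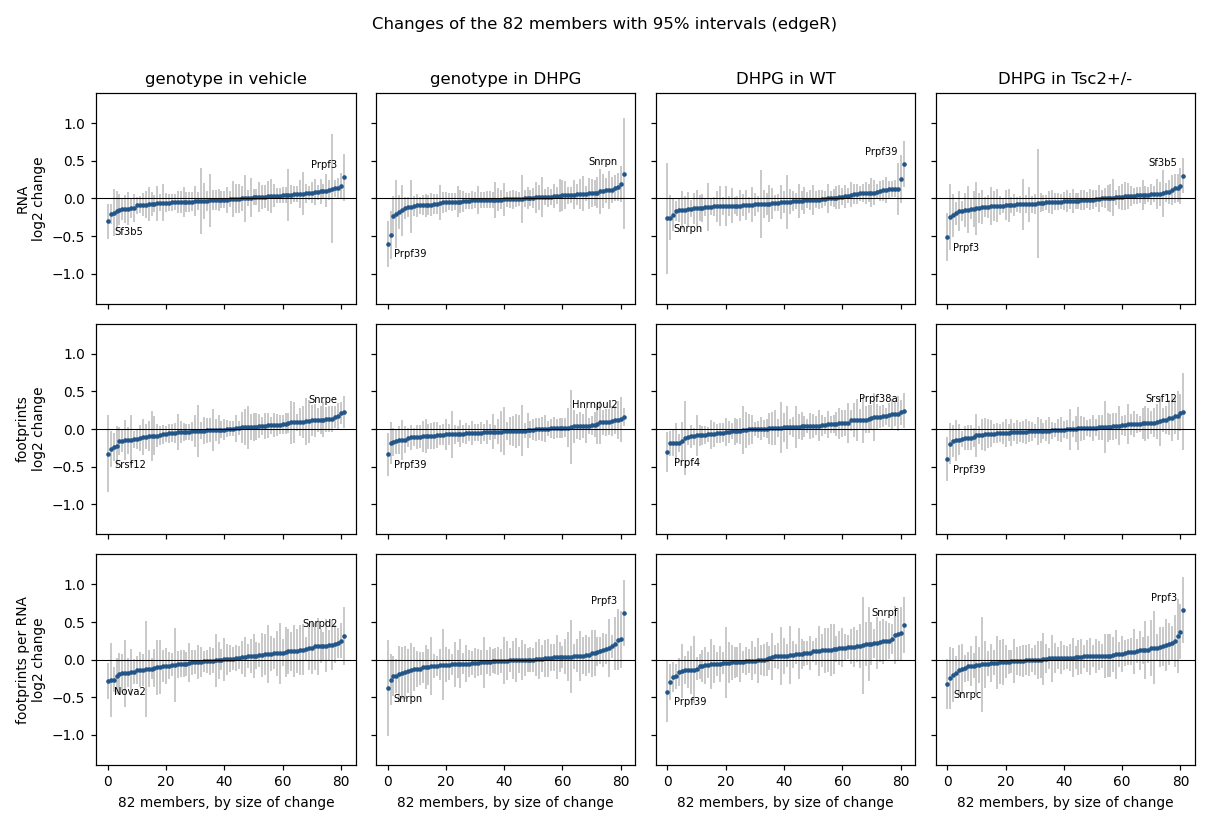
Log2 change (y axis) of each of the 82 members with its 95% interval from edgeR, in RNA, footprints and footprints per RNA for 4 comparisons; members are ordered by size of change and the lowest and highest are named. Only Prpf39 and Prpf3 have a change beyond 0.5 in either direction in these 4 comparisons, and none was called.

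DHPG was compared with vehicle in WT slices, which asks what 5 min of receptor activation does to these genes. In RNA 27 of 82 members (32.9%) were on the higher side and 55 on the lower, with a median log2 change of -0.048, beside 49.5% and -0.0016 for all genes. In RPF 50 members (61.0%) were on the higher side, beside 49.5% of all genes, and in TE 48 (58.5%), beside 50.2%. The median SE of a member's change in RNA was 0.074. Genes are not independent and share libraries, so such shares carry no test, here and below. No change of a single member passed: 0 members were called in RNA, RPF or TE, beside 0%, 0.0311% and 0.0469% of all genes, and DESeq2 called 0. At an unadjusted p under 0.05 there were 8, 11 and 9 members, the first 2 of these being 9.76% and 13.4%, beside 6.45%, 6.71% and 9.07% of all genes. The 3 values per group did not overlap in RNA for 13 members (15.9%), 5 higher and 8 lower, beside 10.3% of all genes, and in RPF for 7 (8.54%), beside 8.96%.

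Prpf39 had the smallest p in RNA, with 7.26, 6.72 and 6.45 CPM in WT vehicle and the WT DHPG values above, which lie higher. The log2 change was 0.45 (SE 0.151, edgeR adjusted p = 0.712), and its footprints, at 15.3, 18.8 and 17.9 CPM in WT vehicle, overlapped those of WT DHPG. In RPF the smallest p was that of Prpf19, an E3 ubiquitin ligase of the spliceosome, with 279, 296 and 289 CPM in WT vehicle and 316, 329 and 328 in WT DHPG. The groups were apart and the change was small, 0.17 (SE 0.054, edgeR adjusted p = 0.517). Srrm2 again had the smallest p in TE, with a log2 change of -0.22 (SE 0.081, edgeR adjusted p = 0.357).

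In genotype in vehicle (RNA and TE) and DHPG in WT (RNA, RPF and TE) the count of called members depended on the second WT vehicle lysate, and it stayed at 0 without that lysate in the other comparisons. Without the RNA and RPF library of that lysate, 7 members were called in TE for DHPG in WT, beside 2.92% of all genes, and leaving out any other single lysate called 0. The members on the higher side were Snrpd2 (log2 change 0.64, SE 0.168, edgeR adjusted p = 0.0386), Sf3b6 (0.48), Hnrnph1 (0.41) and Hnrnpf (0.34), and those on the lower side were Nova2 (-0.47, SE 0.118, edgeR adjusted p = 0.0310), Sf3b2 (-0.36) and Srrm2 (-0.30). With all lysates the same 7 changes were 0.33, 0.25, 0.27, 0.22, -0.30, -0.23 and -0.22, in the same directions and not called. Hnrnph1 footprints were 209, 305 and 276 CPM in WT vehicle and 283, 284 and 314 in WT DHPG, and Nova2 RNA was 228, 250 and 197 and then 251, 233 and 245 CPM, so that in both genes the second WT vehicle lysate lay within the range of WT DHPG. Without it, 3 members were called in TE for genotype in vehicle (Nova2, Snrpd2 and Srrm2, beside 0.574% of all genes), 2 in RNA for DHPG in WT (Nova2 and Srrm2, beside 0.763%), 1 in RNA for genotype in vehicle (Nova2, beside 0.211%) and 1 in RPF for DHPG in WT (Sf3b2, beside 0.2%). These genes were named after their values were seen.

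DHPG was also compared with vehicle in Tsc2+/- slices, with libraries that the WT comparison does not use. In RNA 29 of 82 members (35.4%) were on the higher side, beside 50.1% of all genes, in RPF 37 (45.1%), beside 49.7%, and in TE 49 (59.8%), beside 50.4%. The tests called 0 members in each readout and 0% of all genes, and DESeq2 called 0. At an unadjusted p under 0.05 there were 5, 2 and 2 members, or 6.10%, 2.44% and 2.44%, beside 4.32%, 4.03% and 3.69% of all genes. The groups did not overlap for 11 members in RNA (13.4%), 3 higher and 8 lower, and for 3 in RPF (3.66%), beside 8.69% and 9.42% of all genes. Prpf3 had the smallest p in RNA and in TE. Its RNA in Tsc2+/- slices was 9.69, 9.30 and 7.99 CPM with vehicle and 6.88, 6.68 and 5.41 with DHPG, and its footprints were 12.5, 13.8 and 15.9 and then 14.2, 15.7 and 17.0 CPM. The RNA groups did not overlap and the footprint groups did, and the log2 changes were -0.51 (SE 0.156) in RNA and 0.66 (SE 0.218) in TE, with edgeR adjusted p of 1 and 0.999. In RPF it was Prpf39, with a log2 change of -0.40 (SE 0.143, edgeR adjusted p = 1).

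**Figure D5:**
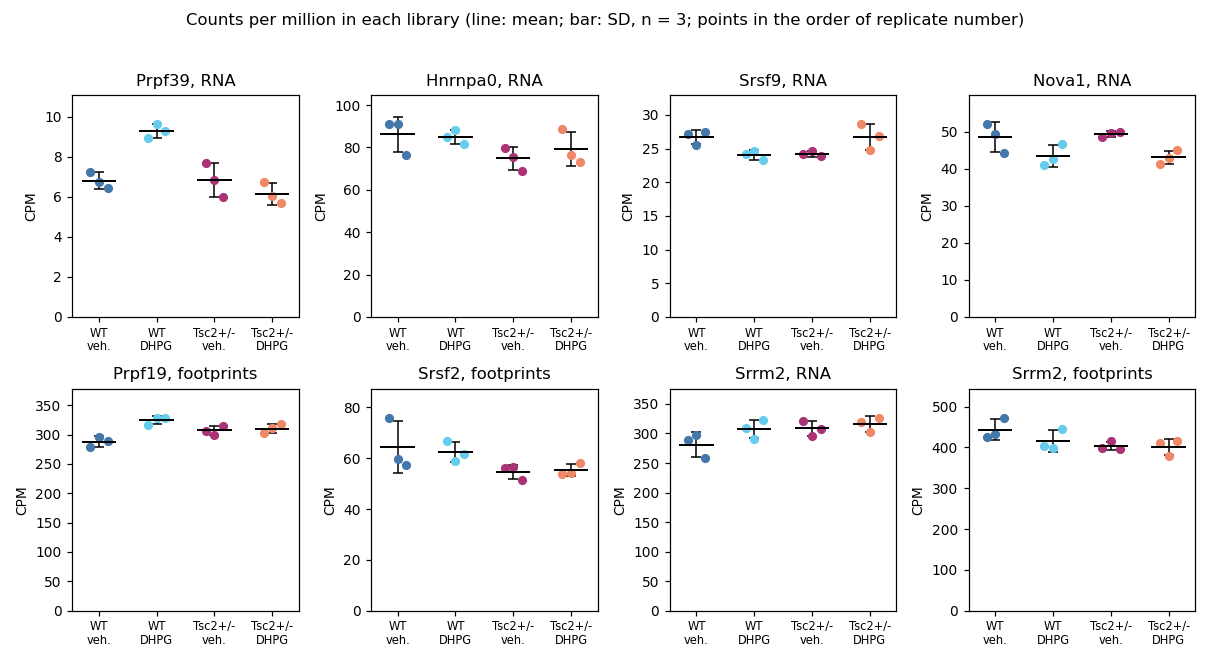
CPM (y axis, from 0) of 7 members in every library of the 4 groups (x axis), RNA or footprints as titled, with the mean and SD of 3 libraries. Prpf39 RNA stands higher in WT DHPG than in the other groups, Srsf9 RNA is lower in WT DHPG and Tsc2+/- vehicle, and the first WT vehicle library is the highest for Srsf2 footprints.

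Averaging over treatments or genotypes narrows the intervals. For genotype averaged over treatments 0 members were called, beside 0.227% of all genes in RNA, 0.0621% in RPF and 0% in TE, and for DHPG averaged over genotypes 0 were called, beside 0.0207%, 0.0311% and 0.0469%. DESeq2 called 0 in both. At an unadjusted p under 0.05 the genotype average had 7, 8 and 2 members, or 8.54%, 9.76% and 2.44%, beside 6.12%, 6.63% and 4.54% of all genes. The DHPG average had 12, 8 and 9 members, the first 2 of these being 14.6% and 9.76%, beside 7.49%, 6.82% and 8.52%. Of the 12 members in RNA, 9 were on the lower side. The intervals lay within 0.5 on the log2 scale for 80, 81 and 79 members for genotype and for 81, 82 and 76 for DHPG.

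Nova1 had the smallest p in RNA for the DHPG average. Its RNA was 52.2, 49.6 and 44.3 CPM in WT vehicle and 41.1, 42.8 and 46.6 in WT DHPG, and for Tsc2+/- 48.7, 49.7 and 50.1 with vehicle and 41.4, 42.9 and 45.0 with DHPG. The groups overlapped in WT and not in Tsc2+/-, and the log2 change was -0.18 (SE 0.054, edgeR adjusted p = 0.498). Hnrnpa0 RNA had the smallest p for genotype, -0.15 (SE 0.045, edgeR adjusted p = 0.370). Srsf2, an SR protein of exon definition, had it in RPF, with 76.0, 59.7 and 57.4 CPM in WT vehicle and 66.9, 59.1 and 61.8 in WT DHPG, and for Tsc2+/- 56.0, 56.5 and 51.3 with vehicle and 53.8, 54.2 and 58.1 with DHPG. Within each treatment the WT values were higher without overlap, beside 8.29% (vehicle) and 10% (DHPG) of all genes without overlap in either direction. Across treatments, WT vehicle overlapped Tsc2+/- DHPG. The log2 change in Tsc2+/- was -0.21 (SE 0.065, edgeR adjusted p = 0.535). The first WT vehicle library was the highest of the 12. Snrpf, another core Sm protein, came nearest to the threshold in TE for DHPG, with 0.42 (SE 0.129, edgeR adjusted p = 0.290). Its RNA was 7.81 to 12.6 CPM over the 12 libraries. Srrm2 in TE for genotype was at -0.18 (SE 0.057, edgeR adjusted p = 0.996) and Snrpn in RPF for DHPG at -0.10 (SE 0.036, edgeR adjusted p = 0.568).

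Whether the response to DHPG differed between the genotypes was tested by the interaction. It called 0 members, and 0% of all genes in RNA, RPF and TE, and 0 members in DESeq2. At an unadjusted p under 0.05 there were 5, 3 and 3 members, or 6.10%, 3.66% and 3.66%, beside 3.47%, 3.81% and 4.08% of all genes. These tests were less precise, with intervals within 0.5 for 70, 74 and 48 members. Prpf3 had the smallest p in RNA, -0.77 (SE 0.222, edgeR adjusted p = 0.999), and in TE, 0.80 (SE 0.310, edgeR adjusted p = 0.999), and Hnrnpul2 in RPF, 0.20 (SE 0.082, edgeR adjusted p = 0.998). Srsf9 RNA, picked out after its values were seen, was 27.1, 25.5 and 27.5 CPM in WT vehicle and 24.1, 24.7 and 23.2 in WT DHPG, and for Tsc2+/- 24.2, 24.7 and 23.8 with vehicle and 28.7, 24.8 and 26.9 with DHPG. DHPG values were lower than vehicle in WT and higher in Tsc2+/-, without overlap in either. In Tsc2+/- the nearest values of the groups were 24.7 and 24.8 CPM. Of all genes, 10.3% in WT and 8.69% in Tsc2+/- were without overlap in either direction. The share of genes without overlap in both was not counted. The interaction for Srsf9 was 0.29 (SE 0.128, edgeR adjusted p = 0.999).

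The wider list of splicing genes that are no members was tested in the same fits. Of 96 tested in RNA and 95 in RPF and TE, 0 were called in any of the 21 comparisons by edgeR. In RNA for DHPG in WT 41.7% were on the higher side, and for DHPG in Tsc2+/- 31.3%. In TE the shares were 58.9% and 65.3%.

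Transcripts that begin with a C followed by a run of pyrimidines are known as terminal oligopyrimidine mRNAs, whose translation is controlled by mTOR, so the annotated starts of the members were read. RefSeq start windows (GRCm38.p6) were found for 71 members, 109 windows in all, and a start was counted when it began with C and with at least 5 pyrimidines (C or T, read on the transcript strand). The rule reads the annotated first base only, so a start annotated some bases away from the true one can be missed. The 3 members that met this rule are shown because they alone met it, each as 30 bases from 10 before the start, with the pyrimidine run in capitals.
Hnrnpa0 (chr13:58128537-58128566, minus strand): cttcagcggcCTCTTTgtgtggtgtcccga
Rbfox1 (chr16:7069825-7069854, plus strand): ggttttgtttCCTTTCCCTCTCCgctgcct
Srsf5 (chr12:80945489-80945518, plus strand): caggacgtccCTTCCattttgtgcaacgtc
They made up 2.75% of the members' windows, beside 2.27% of the 12607 windows of genes tested in both assays. With genotype in vehicle the log2 change in RNA was -0.20 for Hnrnpa0, as given above. For Rbfox1 and Srsf5 only the ranges of their families are given, which also hold genes without such a start. The 3 Rbfox genes were all on the higher side, at 0.016 to 0.096, and the 11 Srsf genes ranged from -0.14 to 0.17. Changes in footprints and TE of the 3 genes with such a start are not given, so their translation is not described. None of the 3 genes with such a start was called in any comparison.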

How the data were processed

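Both deposited tables hold expected counts per gene that the authors made with RSEM and rounded to whole numbers: RNA over whole RefSeq transcripts (mm10), and RPF over coding sequences less 30 bases at each end, from uniquely mapped, de-duplicated reads. The submitters' processing notes name Bowtie2, TopHat2, RSEM, cutadapt and DESeq2, with no versions. In RPF replicates 2 and 3 of all 4 groups, 97.9 to 98.5% of counts were even, beside 48.2 to 49.0% in replicate 1. Whether their reads were counted 2 times is not known. If so, the depth of these 8 libraries, which include the lowest RPF total, is 2 times lower than their counts show.

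Genes passing filterByExpr (minimum count 10) were tested, 14516 in RNA, 12877 in RPF and 12785 in TE, and all 82 members passed. edgeR 4.0.16 (R 4.3.3) quasi-likelihood tests used TMM scaling, 12 libraries per assay and terms for group and replicate number. The study treated its replicates as batches and corrected for them, and the even counts also follow the number. The deviations of all 18 same-numbered pairs correlated positively and weakly (r 0.023 to 0.143 in RNA and 0.033 to 0.263 in RPF), beside -0.126 to 0.024 and -0.194 to 0.067 for the 36 other pairs. TE was the interaction of assay and group over 24 libraries. Benjamini-Hochberg adjustment covered every gene in a fit, and a gene was called at an adjusted p under 0.1. The fits were also run on simulated counts with the same spread for every gene and no replicate effects. That run does not show how small a change could be called in these libraries. DESeq2 1.42.0, ComBat (sva 3.50.0), other scalings, filters and left-out libraries were alternatives. The study's TE method, anota2seq, was not run.

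Levels per kb used RefSeq lengths (GRCm38.p6, transcript with the longest coding sequence) and a pseudocount of 0.1. Genes were named by the smallest p in each comparison and readout among members whose 3 same-numbered differences had a shared sign, by the highest and lowest footprints per RNA overall and in each family, by the highest levels per kb, and as all Rbfox, Nova and Celf genes. The values of 1 gene that this rule names are not reported here. Genes described beside them by role were picked after their values were seen. Members, lists and tests were chosen with earlier results of these data known. Lysates were pools of slices from several mice, and RNA and RPF libraries of a number share a lysate. Comparisons that share a group are not independent.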

Additional observations from a re-analysis of the deposited data

How the results depend on the processing

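Counts of called members stayed at 0 in every comparison under DESeq2, other scalings, other count filters and a GC and length correction. They also stayed at 0 under ComBat then DESeq2, fitted for RNA and RPF only, and under a lysate block, fitted for TE only. With halved RPF counts, fitted for RPF and TE, they were 0 as well. Leaving out single lysates or replicate numbers gave ranges of 0 to 1 (RNA, genotype in vehicle), 0 to 2 (RNA, DHPG in WT), 0 to 1 (RPF, DHPG in WT), 0 to 3 (TE, genotype in vehicle) and 0 to 7 (TE, DHPG in WT). The upper values all came from leaving out WT vehicle replicate 2, and the cause was not tested. Calls over all genes, summed over 7 comparisons, were 56 in RNA, 21 in RPF and 12 in TE, and with DESeq2 84, 51 and 144.

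Replicate number was a term of the main edgeR tests and of DESeq2. ComBat corrected for it before the DESeq2 fit that followed, which had no such term, and the lysate block replaced it. Without the replicate block, 0 members were called, and calls over all genes were 27, 11 and 1.

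The members' median footprints per RNA of 0.77 became 0.87 with a pseudocount of 1, and 0.66 to 0.85 without single replicates. The median log2 RNA level of 4.73 became 5.91 with no division by length, and 4.64 to 4.73 without single replicates. The median log2 footprint level of 6.57 became 6.64 both with mean transcript lengths and with RPKM over 5 in both assays. For footprints per RNA of the families and of the highest and lowest members, 142 alternative values stayed within the SD over lysates. A further 30 moved beyond it and 1 reversed in sign. The Rbfox median reversed to -1.12 with no division by length, and, among those that moved, the Prpf median became 0.29 with RPKM over 5. Adding the RNA of Snurf and using effective lengths were chosen after seeing the data. Prpf39 rests on 108 to 196 RNA counts a library.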
